A study of Homo sapiens with 32 samples.

Results

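The 10 genes described here are the BCL2 family members BCL2, BCL2L1, MCL1, BAX, BAK1, BCL2L11, BBC3, PMAIP1, BID and BAD, taken by symbol from a table of 35238 genes. All 10 were among the 17011 genes that passed the filter on low values and were tested. The study sequenced bulk RNA from 4 cell lines of human endometrial cancer after 24 h of treatment, with 2 replicates in each of 16 groups and 32 libraries in all. The lines were Ishikawa, labelled wild type for CTNNB1 (the gene of beta-catenin), and Ishikawa-S33Y, SNGM and HEC265, each labelled CTNNB1-mutated. How the S33Y substitution was brought into Ishikawa cells, and whether that line is 1 clone, is not given in the sources used here. Every group received 0.1% DMSO as vehicle, alone or with paclitaxel, with SM08502 or with both drugs (the combination). Paclitaxel stabilises microtubules, and SM08502 is an inhibitor of the CDC-like kinases (CLK), whose targets are SR proteins of the splicing machinery. Each line received its own half-inhibitory concentrations for viability, so dose differed with line: Ishikawa 11 nM paclitaxel and 80 nM SM08502, Ishikawa-S33Y 6 and 85 nM, SNGM 11.7 and 350.7 nM, and HEC265 5.6 and 149 nM. Ishikawa libraries started from 350 ng of RNA and the others from 500 ng, so neither input nor dose can be told apart from line.

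The BCL2 family controls the permeability of the outer mitochondrial membrane, the step that commits a cell to the intrinsic pathway of apoptosis. Anti-apoptotic members (BCL2, BCL2L1, MCL1) bind and hold back the effectors (BAX, BAK1), which form pores that release cytochrome c, and BH3-only proteins (BCL2L11, BBC3, PMAIP1, BID, BAD) engage the anti-apoptotic members or activate the effectors. Several members, among them BCL2L1, MCL1 and BCL2L11, are textbook cases of alternative splicing that yields proteins of opposing or different activity. The values used here sum over all transcripts of a gene and cannot separate such isoforms.

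Levels are given as CPM, reads per 1000000 counted, and changes as log2 differences on the log2(CPM + 1) scale, which understates the change of low genes. A change was called when its Benjamini-Hochberg adjusted p from limma, taken over all 17011 genes, was under 0.05. Of the libraries, 30 held 13026400 to 34127623 reads, and the second combination replicates of Ishikawa-S33Y (2991041 reads) and SNGM (1607038) were far shallower. The fewest reads behind any value of the 10 genes were 8, for BBC3 in the shallow Ishikawa-S33Y library. Cells were plated in duplicate, and nothing says that duplicates were independent cultures, so p values measure the spread between these samples, which may be technical. All 5 epithelial markers (EPCAM, KRT8, KRT18, CDH1, CLDN4) lay above 1 CPM in every line by median. Of 3 Mullerian markers, EMX2 had a median under 1 CPM in SNGM and HEC265, and SOX17 was at 0 in SNGM. The summed fibroblast markers reached 714 to 1165 CPM in Ishikawa-S33Y, nearly all of it COL1A1, against 31.4 to 194 CPM in Ishikawa and under 10 CPM in the other lines, with LUM and PDGFRB under 1 CPM in all lines. Because these are bulk samples, fewer cells of a kind and less RNA per cell cannot be told apart.

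On the GRCh38.p14 assembly of RefSeq, BCL2 spans chr18:63123346-63320090, BCL2L1 chr20:31664452-31723963 and MCL1 chr1:150574558-150579610. The effector genes lie at chr19:48954875-48961798 (BAX) and chr6:33572552-33580276 (BAK1). Among the BH3-only genes, BCL2L11 lies at chr2:111120914-111168445, BBC3 at chr19:47220824-47232860, PMAIP1 at chr18:59899996-59904305, BID at chr22:17734138-17774665 and BAD at chr11:64269828-64284704. All are protein-coding, and the values count the whole gene. Strand of counting is not given in the sources used here, so reads of BCL2L1 and its antisense gene BCL2L1-AS1, and of BAD and the overlapping GPR137, cannot be told apart. The same holds for other annotated loci that overlap BCL2 (LOC124904379), BCL2L1 (LOC124904883), BBC3 (MIR3190 and MIR3191) and BID (MIR3198-1). BAK1 has pseudogene copies (BAK1P1, BAK1P2) listed in the same table and is uncertain to that extent.

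The promoters of BAX, BAK1 and PMAIP1 are shown first, because the effectors BAX and BAK1 rose in HEC265 and PMAIP1 rose in Ishikawa-S33Y in the comparisons that follow. Each is the 250 bases ahead of the gene's start in RefSeq (GRCh38.p14), written 5′ to 3′ on the gene's strand: chr19:48954625-48954874 (plus strand) for BAX, chr6:33580277-33580526 (minus strand) for BAK1 and chr18:59899746-59899995 (plus strand) for PMAIP1. Capitals mark matches on either strand to CACGTG (an E-box), GGGCGG (a GC box), CCAAT and TGACG (the core of a cAMP response element).
BAX: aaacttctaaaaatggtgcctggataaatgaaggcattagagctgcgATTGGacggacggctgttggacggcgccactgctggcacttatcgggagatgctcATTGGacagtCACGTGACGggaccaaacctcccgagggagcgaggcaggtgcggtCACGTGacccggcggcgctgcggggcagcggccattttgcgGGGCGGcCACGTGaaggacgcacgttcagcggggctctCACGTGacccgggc
BAK1: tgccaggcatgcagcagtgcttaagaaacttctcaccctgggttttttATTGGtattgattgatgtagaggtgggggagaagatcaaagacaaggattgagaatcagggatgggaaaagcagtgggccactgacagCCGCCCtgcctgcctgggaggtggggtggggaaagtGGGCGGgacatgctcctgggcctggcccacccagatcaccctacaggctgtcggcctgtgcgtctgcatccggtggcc
PMAIP1: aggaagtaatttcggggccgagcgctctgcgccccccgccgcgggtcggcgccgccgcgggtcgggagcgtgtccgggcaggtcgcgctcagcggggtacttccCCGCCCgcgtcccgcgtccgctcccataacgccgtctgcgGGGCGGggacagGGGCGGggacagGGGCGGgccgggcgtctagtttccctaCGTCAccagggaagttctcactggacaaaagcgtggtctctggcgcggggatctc
The BAX window held CACGTG 4 times, a motif present in 6.34% of 35116 windows of the same length, with 1 of the matches overlapping its single TGACG. It also held CCAAT 2 times (in 32% of windows) and GGGCGG 1 time (in 42.6%). The BAK1 window held GGGCGG 2 times and CCAAT 1 time, with no CACGTG or TGACG. The PMAIP1 window held GGGCGG 4 times and TGACG 1 time (in 21.2% of windows), with no CACGTG or CCAAT. A match of letters is a description of the window and not a measured binding site.

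On vehicle, the lines differed in the balance of the family. Ishikawa had the lowest BCL2L1 of the 4 lines, Ishikawa-S33Y the lowest PMAIP1, SNGM the lowest BCL2 and the highest BAX, and HEC265 the highest BID and PMAIP1 with the lowest BAX. Across the 6 pairs of lines, 42 of 60 differences (70%) were called, against 58.7% of all gene-by-pair tests, so the count is read only beside that background. Re-centring each library on its median gene shifted the median of all genes by 0.11 to 0.21 in the pairs of SNGM or HEC265 against either Ishikawa line, and differences of that size are not read.

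Among the anti-apoptotic members, BCL2 read 14.3 and 18.1 CPM for Ishikawa, 27.5 and 28.3 for Ishikawa-S33Y, 8.97 and 8.82 for SNGM, and 29.6 and 28.0 for HEC265. The order was therefore SNGM, Ishikawa, then Ishikawa-S33Y and HEC265, which did not differ (log2 difference 0.04, adjusted p = 0.81). BCL2 was higher in Ishikawa-S33Y than in Ishikawa by 0.76 and lower in SNGM than in Ishikawa-S33Y by 1.54 on the log2 scale (adjusted p = 9.5e-05 and 1.6e-09). BCL2L1, which encodes BCL-XL, stood at 115 and 106 CPM in Ishikawa, and the other lines held 332 and 324 (Ishikawa-S33Y), 296 and 278 (SNGM) and 268 and 259 CPM (HEC265). Ishikawa lay below the other 3 lines by 1.25 to 1.56 on the log2 scale. MCL1, whose protein is short-lived, ranged less, with 166 and 153 CPM (Ishikawa), 140 and 139 (Ishikawa-S33Y), 260 and 225 (SNGM) and 206 and 202 (HEC265). MCL1 was called between either Ishikawa line and SNGM or HEC265 (0.36 to 0.79) but not within those 2 pairs. With a score of library composition (described below) as a covariate, its differences of SNGM and HEC265 from Ishikawa were not called (0.37 and 0.18, adjusted p = 0.086 and 0.32). On vehicle that score was -2.91 and -2.42 in Ishikawa, -0.57 and -0.14 in SNGM, and -0.84 and -0.93 in HEC265. It went with line, so adjusting for it can remove part of any line difference, here and for the genes below. The HEC265 difference was also not called after quantile normalization (0.19, adjusted p = 0.060) or without Ishikawa vehicle replicate 2 (0.30, adjusted p = 0.066).

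Of the effectors, BAX was highest in SNGM (103 and 94.6 CPM), intermediate in Ishikawa (60.6 and 52.8) and Ishikawa-S33Y (54.8 and 55.4), and lowest in HEC265 (36.1 and 39.0). HEC265 lay 1.38 below SNGM on the log2 scale (adjusted p = 4.7e-11), and the Ishikawa lines did not differ from each other beyond their spread (-0.04, adjusted p = 0.78). BAK1 lay in a narrow band of 15.4 to 25 CPM over the 8 vehicle libraries. Its 2 called differences, SNGM below HEC265 (0.49 on the log2 scale) and below Ishikawa (-0.40), were both lost without SNGM vehicle replicate 2, at 0.36 and -0.27 (adjusted p = 0.14 and 0.24). The HEC265 difference was also lost without either HEC265 vehicle library (0.49 and 0.48, adjusted p = 0.054 and 0.060), and the Ishikawa difference without Ishikawa vehicle replicate 1 (-0.24, adjusted p = 0.29). The Ishikawa difference was -0.25 and -0.26 after the other scalings (adjusted p = 0.15 and 0.14), and it was not called with the composition covariate, with only these lines fitted or with no filter (adjusted p = 0.315, 0.11 and 0.053).

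Among the BH3-only genes, PMAIP1, BBC3 and BID spanned more between line means than any other member, and BCL2L11 and BAD spanned less than BCL2. PMAIP1, which encodes NOXA, an inhibitor of MCL1, was lowest in Ishikawa-S33Y (7.00 and 5.87 CPM), followed by Ishikawa (22.8 and 24.6), SNGM (32 and 25.7) and HEC265 (44.6 and 49.3). Ishikawa-S33Y lay 1.74 below Ishikawa on the log2 scale (adjusted p = 1.8e-07), and HEC265 lay 2.69 above Ishikawa-S33Y. SNGM did not differ from Ishikawa (0.27, adjusted p = 0.21), and its difference from HEC265 (0.69) was lost without SNGM vehicle replicate 2 (0.54, adjusted p = 0.059). BBC3, which encodes PUMA, fell into a low pair, Ishikawa (3.82 and 2.61 CPM) and Ishikawa-S33Y (3.75 and 3.10), and a high pair, SNGM (15.4 and 13.7) and HEC265 (11.7 and 11.6). No vehicle library of one pair overlapped the other, and neither pair differed within itself (0.08 and -0.30, adjusted p = 0.78 and 0.23). BID, the link from death receptors to mitochondria, showed the same split, with 18.1 and 19.6 CPM (Ishikawa) and 20.7 and 22.3 (Ishikawa-S33Y) against 56.4 and 45.5 (SNGM) and 70.9 and 72.9 (HEC265), of which the last pair of lines differed by 0.50, or by 0.33 (adjusted p = 0.060) after quantile normalization. BAD, an antagonist of BCL2 and BCL-XL that survival kinases phosphorylate, was split the other way, with 21.6 and 17.7 CPM (Ishikawa) and 15.8 and 16.2 (Ishikawa-S33Y) against 7.22 and 5.95 (SNGM) and 8.46 and 9.73 (HEC265). HEC265 lay above SNGM for BAD by 0.41 (limma, adjusted p = 0.034). That call was lost with the composition covariate (0.30, adjusted p = 0.097) and without SNGM or HEC265 vehicle replicate 2 (0.29 and 0.32). BCL2L11, which encodes BIM, was highest in Ishikawa (51.5 and 57.4 CPM). In the other lines it was 37.0 and 34.5, 32.3 and 31.1, and 39.4 and 37.7 CPM in the same order, with no called difference among those 3.

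The 1 pair that shares a parental name, Ishikawa-S33Y against Ishikawa, had 4 of 10 members called (48.3% of all genes tested). BCL2L1 (1.56) and BCL2 (0.76) were higher in Ishikawa-S33Y, and PMAIP1 (-1.74) and BCL2L11 (-0.59) were lower. These 4 calls held under every alternative that was run. BAX, BAK1, MCL1, BBC3, BID and BAD differed by -0.27 to 0.18 on the log2 scale with no call.

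**Figure D1:**
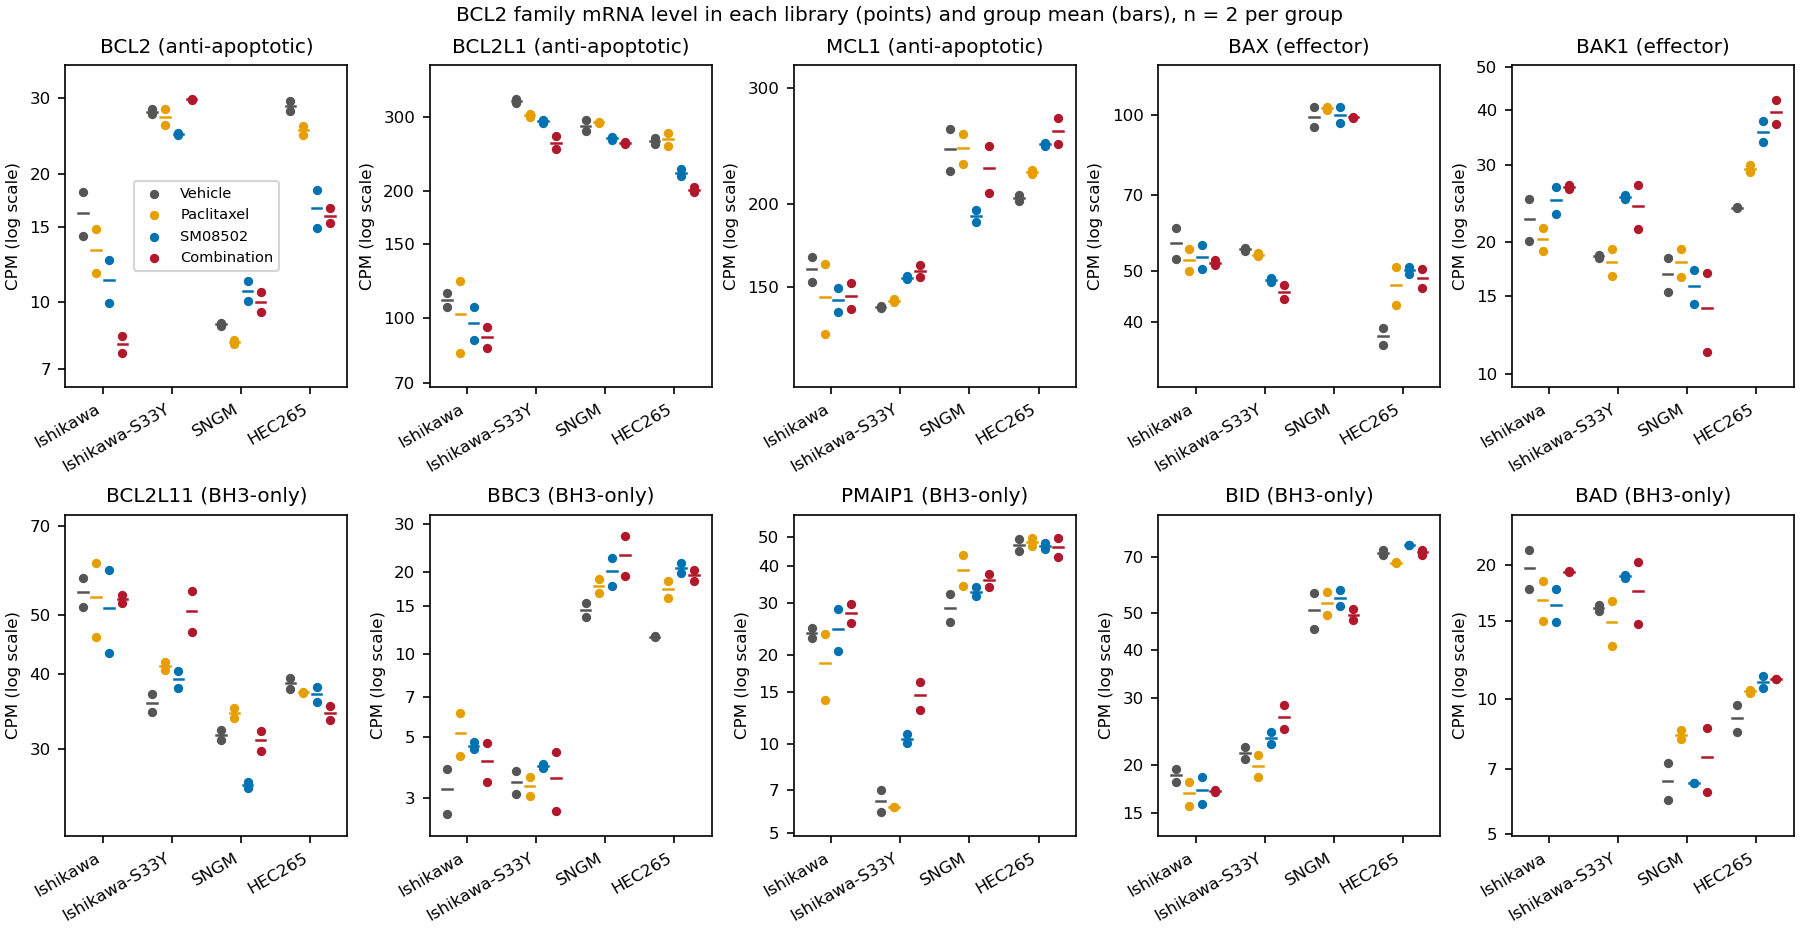
CPM on a log axis of each BCL2 family gene in every library (points; bars are group means of 2 replicates), by cell line on the horizontal axis and coloured by treatment. HEC265 BCL2 lies at 14.9 to 18.3 CPM with SM08502 or the combination against 28.0 and 29.6 CPM on vehicle, and PMAIP1 in Ishikawa-S33Y climbs from 5.87 and 7.00 CPM on vehicle to 13 and 16.2 CPM with the combination.

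With SM08502 alone, a fall of BCL2 and rises of effector and BH3-only mRNAs were called in some lines. A call in 1 line and none in another is not by itself a difference between lines. By limma's F test over the 4 lines, no difference of the SM08502 effect was called for BAK1, BBC3 or PMAIP1 (adjusted p = 0.16, 0.42 and 0.26). Of 40 member-by-line tests, 7 were called (17.5%), 5 higher and 2 lower, against 16.7% of all gene-by-line tests (9.52% higher and 7.18% lower), so the family was not called more often than genes at large. HEC265 held 4 of the 7 (14.7% of all genes there), Ishikawa-S33Y 2 (29.1%), Ishikawa 1 (15.2%) and SNGM 0 (7.86%), where 2 members had an unadjusted p under 0.05 and voom on recovered reads called 2 (MCL1 and BBC3). The count fell to 3 without HEC265 vehicle replicate 1 or SM08502 replicate 1, and to 4 without the second replicate of either group. With 2 libraries in a group, smaller changes can be missed. In simulated data for HEC265, 62.7% of 67 genes changed 2-fold were recovered and 14.9% of 67 changed 1.5-fold. That simulation changed only a small part of its 17011 genes, against 14.7% called here. It also gave every library the same spread beyond counting noise, so its shares do not give the power of the real tests.

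BCL2 gave the largest fall. In HEC265 it went from 29.6 and 28.0 CPM on vehicle to 14.9 and 18.3 CPM with SM08502, a log2 change of -0.76 ± 0.13 (SE, adjusted p = 5.4e-04). The groups did not overlap, and the call held under every alternative that was run. In Ishikawa it went from 14.3 and 18.1 to 12.5 and 9.97 CPM, a change of -0.49 ± 0.13 (adjusted p = 0.018), again without overlap. That call was lost without vehicle replicate 2 (-0.33, adjusted p = 0.24), without SM08502 replicate 2 (-0.34, adjusted p = 0.24) and when only Ishikawa samples were fitted (adjusted p = 0.26). The Ishikawa libraries also varied in composition: a composition score, the average log2 level of 52 genes with long transcripts less the average of 77 genes for ribosomal proteins, was -2.91 and -2.42 on vehicle and -2.33 and -3.19 with SM08502. With that score as a covariate the call was kept. BCL2 was 24.6 and 24.9 CPM in Ishikawa-S33Y with SM08502 against 27.5 and 28.3 on vehicle, and 11.2 and 10.1 against 8.97 and 8.82 in SNGM, with no call in either.

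The other anti-apoptotic members had no call in any single line with SM08502. BCL2L1 was below vehicle in all 4 lines by small amounts, for example 217 and 226 CPM against 268 and 259 in HEC265, and its mean over the lines was called (-0.17 ± 0.06, adjusted p = 0.029). Leaving out any 1 of 8 libraries, 2 from each line, moved that mean to between -0.14 and -0.17 and ended the call (adjusted p = 0.052 to 0.078): replicate 1 of the vehicle in each line, replicate 2 of SM08502 in Ishikawa and SNGM, and replicate 1 of SM08502 in Ishikawa-S33Y and HEC265. MCL1 moved in different directions: 188 and 196 CPM against 260 and 225 on vehicle in SNGM (-0.33, adjusted p = 0.065), and 248 and 245 against 206 and 202 in HEC265.

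Both effectors rose in HEC265. BAX went from 36.1 and 39.0 to 51.0 and 49.5 CPM (0.41 ± 0.09, adjusted p = 0.0049), and BAK1 from 23.8 and 24.0 to 33.7 and 37.6 CPM (0.56 ± 0.16, adjusted p = 0.022). In neither gene did the groups overlap. The BAX call was lost without vehicle replicate 1 (0.36, adjusted p = 0.079) or SM08502 replicate 1 (0.39, adjusted p = 0.054), and the BAK1 call without any 1 of the 4 libraries (0.48 to 0.63, adjusted p = 0.063 to 0.18) or after median re-centring or quantile normalization (0.46 and 0.43, adjusted p = 0.0501 and 0.085). BAK1 was also above vehicle in Ishikawa-S33Y, at 25.5 and 25 against 18.4 and 18.7 CPM (0.43, adjusted p = 0.049), and that call too was lost without any 1 library (0.41 to 0.44, adjusted p = 0.15 to 0.16). The Ishikawa-S33Y call was also lost with no filter, another pseudocount, median re-centring or no intensity trend (adjusted p = 0.052 to 0.077). BAK1 in SNGM read 17.2 and 14.4 CPM, and BAX in Ishikawa-S33Y read 47.8 and 48.6 CPM, below its vehicle libraries, with no call.

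Among the BH3-only genes, BBC3 in HEC265 rose from 11.7 and 11.6 to 21.5 and 19.9 CPM, a change of 0.78 ± 0.20 (adjusted p = 0.012). Both drug libraries lay above both vehicle libraries, but without any 1 of them the adjusted p was 0.055 to 0.097, at changes of 0.72 to 0.83. In the other lines BBC3 was also higher with SM08502 in every library, without a call: 4.80 and 4.5 CPM (Ishikawa), 3.97 and 3.85 (Ishikawa-S33Y) and 22.4 and 17.8 (SNGM). PMAIP1 was called in Ishikawa-S33Y, where it rose from 7.00 and 5.87 to 10.0 and 10.8 CPM (0.62 ± 0.19, adjusted p = 0.016). Without vehicle replicate 2 the change was 0.51, and without SM08502 replicate 1 or 2 it was 0.67 or 0.57, none of them called (adjusted p = 0.051 to 0.14), nor was it after median re-centring (0.57, adjusted p = 0.064). In HEC265, where PMAIP1 was already highest, it read 47.8 and 45.6 CPM against 44.6 and 49.3, although the difference in effect between the 4 lines was not called (F test, adjusted p = 0.26). BCL2L11, BID and BAD had no call with SM08502 in any line.

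Averaged over the 4 lines with equal weight, SM08502 lowered BCL2 (-0.30 ± 0.07, adjusted p = 0.0015) and BCL2L1 and raised BAK1 (0.26 ± 0.08, adjusted p = 0.014) and BBC3 (0.45 ± 0.10, adjusted p = 0.0013). These 4 of 10 members compare with 38.5% of all genes. An average hides the differences between lines described below for BCL2.

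The combination of SM08502 and paclitaxel gave 13 calls in 40 tests (32.5%), 8 higher and 5 lower, against 25.7% of all gene-by-line tests (14.7% higher and 11.0% lower). HEC265 held 6 (19.5% of all genes there), Ishikawa-S33Y 5 (42.0%), and Ishikawa and SNGM 1 each (22.8% and 18.4%). The count fell to 8 without HEC265 vehicle replicate 1 or without either HEC265 combination library. These comparisons share their vehicle libraries with those of SM08502 alone, so the values are given side by side and are not independent of them.

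BCL2 again fell in Ishikawa and HEC265. In Ishikawa it read 7.63 and 8.36 CPM with the combination against 14.3 and 18.1 on vehicle, a change of -0.93 ± 0.13 (adjusted p = 7.1e-05). The call was lost only in the fit of Ishikawa samples alone (adjusted p = 0.068). In HEC265 it read 15.3 and 16.6 CPM (-0.81 ± 0.13, adjusted p = 2.0e-04), a call kept under every alternative. In Ishikawa-S33Y the combination libraries read 29.9 and 29.8 CPM and in SNGM 9.50 and 10.6 CPM, both pairs slightly above vehicle and not called. BCL2L1 fell in HEC265, to 205 and 199 CPM (-0.38, adjusted p = 0.031), and in Ishikawa-S33Y, from 332 and 324 to 270 and 252 CPM (-0.33, adjusted p = 0.034). Each BCL2L1 call was lost with no filter on low genes (adjusted p = 0.052 and 0.053) and without any 1 of its 4 libraries, with changes of -0.36 to -0.40 in HEC265 (adjusted p = 0.099 to 0.17) and of -0.28 to -0.38 in Ishikawa-S33Y (adjusted p = 0.052 to 0.17). MCL1 rose in HEC265, to 246 and 271 CPM (0.33 ± 0.11, adjusted p = 0.032). It was not called without any 1 library (0.27 to 0.40, adjusted p = 0.053 to 0.26) or after re-centring on the median gene, which shifted all genes there by -0.11 (0.23, adjusted p = 0.18).

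Of the effectors, BAX moved in opposite directions in 2 lines. It rose in HEC265, to 50.5 and 46.5 CPM (0.36 ± 0.09, adjusted p = 0.0093), and fell in Ishikawa-S33Y, from 54.8 and 55.4 to 44.2 and 47.1 CPM (-0.27 ± 0.09, adjusted p = 0.029). The HEC265 rise was not called after median re-centring (0.25, adjusted p = 0.089) or without vehicle or combination replicate 1 (0.31 and 0.30, adjusted p = 0.11 and 0.10). The Ishikawa-S33Y fall was not called without either vehicle library or combination replicate 1 (-0.22 to -0.28, adjusted p = 0.092 to 0.14). BAK1 rose in HEC265 to 37.1 and 42.1 CPM (0.70 ± 0.16, adjusted p = 0.0034), a call lost without combination replicate 2 (0.61, adjusted p = 0.061). In SNGM it read 17.0 CPM and, in the shallow library, 11.2 CPM from 18 reads, a change of -0.26 (adjusted p = 0.27) that was 0.02 (adjusted p = 0.99) without that library. BAK1 in Ishikawa-S33Y was not called (0.36, adjusted p = 0.079), but was called without the shallow libraries (0.52, adjusted p = 0.012).

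PMAIP1 in Ishikawa-S33Y gave the largest rise of the family. It went from 7.00 and 5.87 CPM to 16.2 and 13 CPM (1.07 ± 0.19, adjusted p = 1.0e-04), with no overlap, and the call held under every alternative, the shallow second library left out included. Other lines had no PMAIP1 call with the combination. BCL2L11 rose in Ishikawa-S33Y from 37.0 and 34.5 to 54.6 and 46.8 CPM (0.49 ± 0.13, adjusted p = 0.0040). The second of these values came from the shallow library, and without the first the change was 0.38 (adjusted p = 0.055). BID rose in Ishikawa-S33Y from 20.7 and 22.3 to 24.8 and 28.8 CPM (0.30, adjusted p = 0.042). Without the shallow library, the higher of the 2, the change was 0.20 (adjusted p = 0.29), and it was also lost without vehicle replicate 1 (0.25, adjusted p = 0.20) or 2 (0.35, adjusted p = 0.074), after either other scaling (0.29 and 0.32, adjusted p = 0.10 and 0.073) and with voom (0.25, adjusted p = 0.14). BBC3 rose in HEC265, to 20.4 and 18.6 CPM (0.70 ± 0.20, adjusted p = 0.018), and in SNGM, from 15.4 and 13.7 to 27.0 and 19.3 CPM (0.62 ± 0.20, adjusted p = 0.037). The HEC265 call was lost without any 1 library (0.63 to 0.76, adjusted p = 0.068 to 0.11) or after quantile normalization (0.50, adjusted p = 0.065). In SNGM it was lost without either vehicle library or combination replicate 1 (0.39 to 0.69, adjusted p = 0.084 to 0.20), with no filter or the lower pseudocount (adjusted p = 0.062 and 0.067), and when only SNGM samples were fitted (adjusted p = 0.16). BAD had no call.

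**Figure D2:**
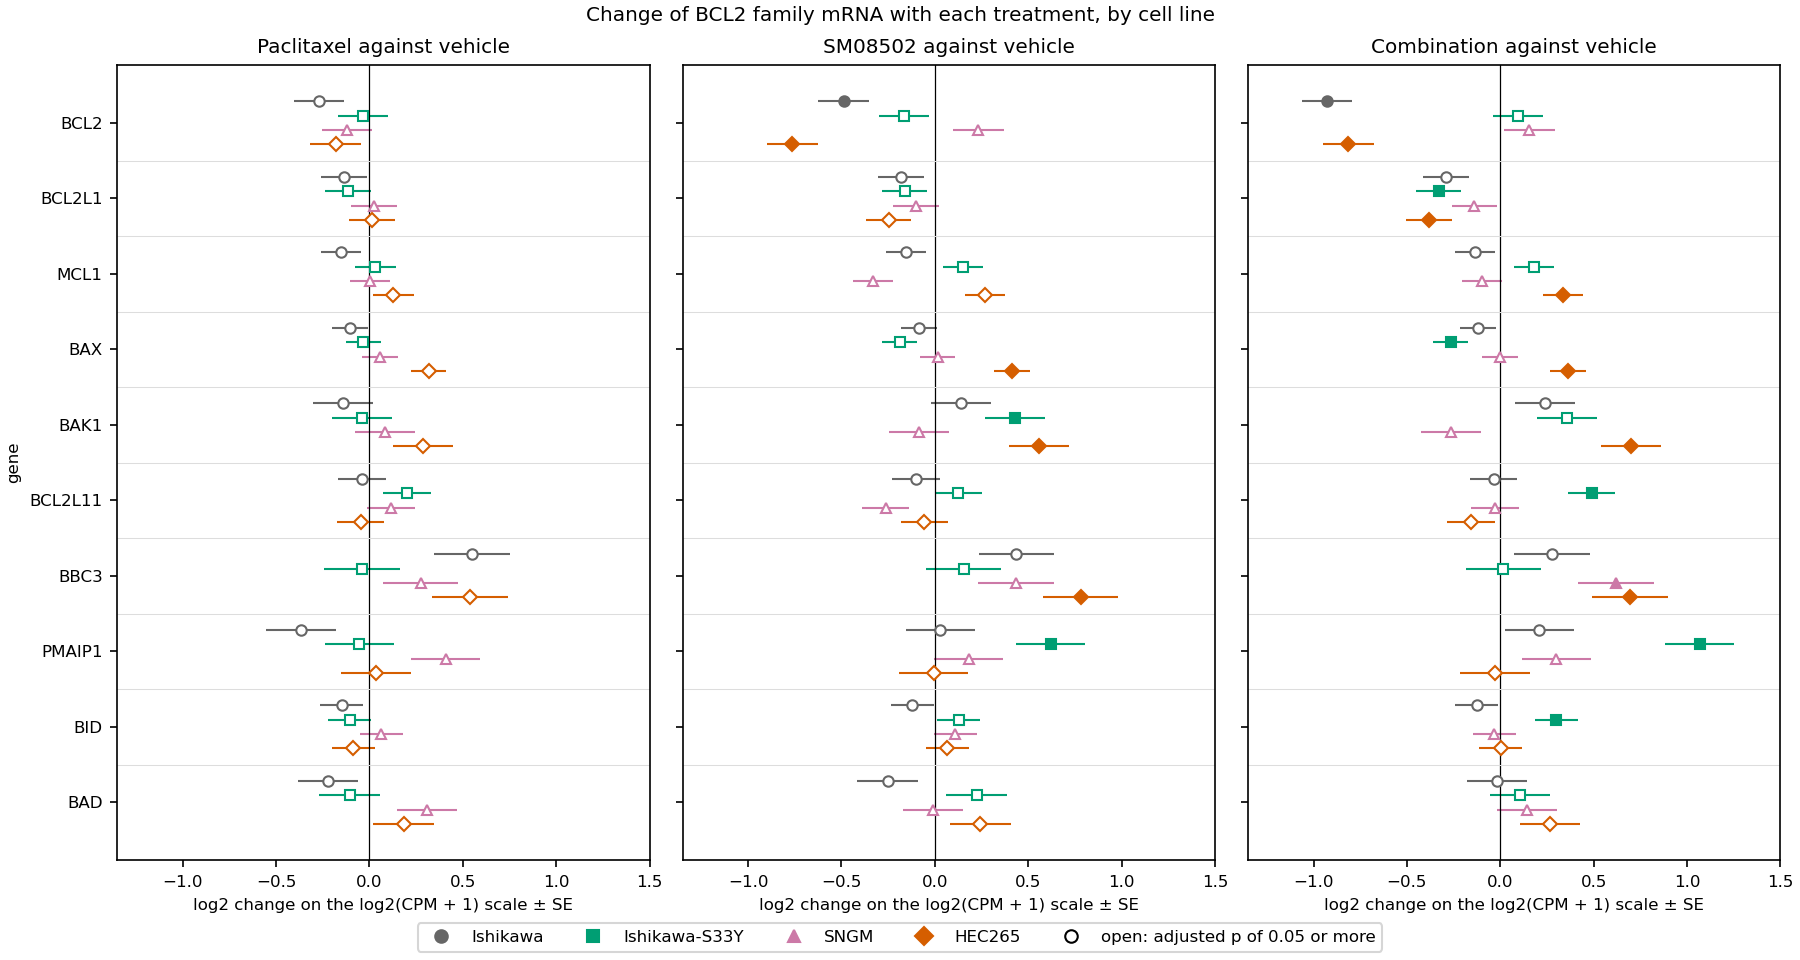
Log2 change against vehicle on the log2(CPM + 1) scale with its standard error, for each gene (rows) and line (marker), in 3 panels for paclitaxel, SM08502 and the combination. Filled markers passed an adjusted p under 0.05: 13 for the combination, 7 for SM08502 and 0 for paclitaxel. The filled markers include PMAIP1 in Ishikawa-S33Y (1.07) and BCL2 in Ishikawa (-0.93), both for the combination.

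Averaged over lines, the combination lowered BCL2 (-0.37 ± 0.07) and BCL2L1 (-0.29 ± 0.06) and raised BBC3 (0.40 ± 0.10), PMAIP1 (0.39 ± 0.09) and BAK1 (0.26 ± 0.08). These 5 of 10 members, with adjusted p between 1.1e-04 and 0.011, compare with 49.1% of all genes tested.

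The response differed between lines for several members, as tested by limma's F test of the drug effect over the 4 lines. With SM08502 this test was passed by BCL2 (adjusted p = 0.0072), BAX (adjusted p = 0.018) and MCL1 (adjusted p = 0.031), 3 of 10 members against 12.4% of all genes. The BCL2 change in HEC265 was below that in SNGM by 1.00 on the log2 scale, and that in SNGM was above that in Ishikawa by 0.72. The BAX change in HEC265 was above that in Ishikawa-S33Y by 0.60, and the MCL1 change in SNGM lay below those in HEC265 and Ishikawa-S33Y by 0.60 and 0.48. With the combination, BCL2 (adjusted p = 2.1e-04), BAX (0.0082), PMAIP1 (0.017), BAK1 (0.020) and BCL2L11 (0.037) passed, 5 of 10 against 27.1%. For BCL2 both falling lines differed from both others, by 0.91 to 1.08. The PMAIP1 rise in Ishikawa-S33Y exceeded the change in Ishikawa by 0.86, in HEC265 by 1.10 and in SNGM by 0.77. The PMAIP1 F test was not passed without Ishikawa-S33Y vehicle replicate 2 or combination replicate 1. The BCL2L11 rise in Ishikawa-S33Y exceeded the changes in SNGM and HEC265 by 0.52 and 0.64. HEC265 lay above SNGM for BAK1 by 0.97, a difference that was 0.69 (adjusted p = 0.056) without the shallow libraries, when the F test was still passed (adjusted p = 0.048). Without SNGM combination replicate 2 alone the BAK1 F test was not passed (adjusted p = 0.071). The BCL2L11 difference from SNGM was 0.57 (adjusted p = 0.071) without the shallow libraries. HEC265 lay above both Ishikawa lines for BAX by 0.48 and 0.63. The count for SM08502 fell to 1 without HEC265 vehicle replicate 1 or either HEC265 SM08502 library, and after median re-centring. That for the combination fell to 3 without Ishikawa-S33Y vehicle replicate 2, Ishikawa-S33Y combination replicate 1, SNGM vehicle replicate 1 or HEC265 combination replicate 2. BCL2 passed for both treatments, and BAX for the combination, under every alternative. MCL1 did not pass without any 1 library of Ishikawa-S33Y or HEC265. Nor did it pass without SNGM vehicle replicate 1 or either SNGM SM08502 library, or after median re-centring (F test, adjusted p = 0.119). BCL2L11 did not pass the test without most single libraries. BCL2L1 and BBC3 did not pass it for either treatment (adjusted p = 0.92 and 0.42 with SM08502, 0.64 and 0.19 with the combination), which does not show that the lines responded alike. Drug concentrations differed between lines.

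Paclitaxel alone had no call in 40 tests by limma, against 0.00882% of all gene-by-line tests, and voom on the recovered reads also gave 0. At an unadjusted p under 0.05 there were 4: BBC3 in Ishikawa (6.10 and 4.25 CPM, log2 change 0.55) and HEC265 (18.6 and 16.1 CPM, 0.54), BAX in HEC265 (51.0 and 43.1 CPM, 0.32) and PMAIP1 in SNGM (43.4 and 34.0 CPM, 0.41). All 4 lay above both vehicle libraries of their line. Without Ishikawa paclitaxel replicate 1, BCL2L1 in Ishikawa was called (-0.42, adjusted p = 0.032). The Ishikawa paclitaxel libraries stood apart in composition, with scores of -1.65 and -3.24, and PMAIP1 read 14 and 23.4 CPM in them. With the score as a covariate the count of calls was 0 as well.

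Against SM08502 alone, the combination had no member called in 40 tests (0.0970% of all gene-by-line tests), by limma and by voom alike. Here 4 had an unadjusted p under 0.05: BCL2 in Ishikawa (-0.44), BCL2L11 (0.36) and PMAIP1 (0.45) in Ishikawa-S33Y, and MCL1 in SNGM (0.23, or 0.11 without the shallow library). Without SNGM combination replicate 1, which leaves only the shallow library in that group, 2 were called there, MCL1 (0.35, adjusted p = 0.040) and BAK1 (-0.46, adjusted p = 0.041). Against paclitaxel alone 6 were called (21.2% of all gene-by-line tests). BCL2 was lower in Ishikawa (-0.66, not called when only that line was fitted, adjusted p = 0.19) and HEC265 (-0.63), BCL2L1 was lower in HEC265 (-0.39), PMAIP1 was higher in Ishikawa-S33Y (1.12) and Ishikawa (0.58), and BID was higher in Ishikawa-S33Y (0.41). The PMAIP1 difference in Ishikawa was 0.23 (adjusted p = 0.52) without paclitaxel replicate 1 and 0.37 (adjusted p = 0.052) with the composition score as a covariate. It was also not called without combination replicate 1 or 2 (0.68 and 0.47, adjusted p = 0.088 and 0.27), after either other scaling, with no filter, with the lower pseudocount or when only Ishikawa was fitted (adjusted p = 0.052 to 0.315). Without the shallow libraries the BID difference was 0.30 (adjusted p = 0.086), and it was 0.31 (adjusted p = 0.11) without Ishikawa-S33Y paclitaxel replicate 1. The BCL2L1 difference was -0.35 to -0.44 without any 1 library (adjusted p = 0.090 to 0.21). The count itself rose to 10 without the shallow libraries and to 11 without Ishikawa paclitaxel replicate 2. No departure of a member from additivity of the 2 drugs was called in the mean over lines, by limma or by voom. The limma test called 0.00% of all genes, so the lack of calls does not show that the effects were additive. BBC3 had an unadjusted p of 0.015 (-0.38) by limma.

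Ratios of a pro-apoptotic to an anti-apoptotic mRNA within a library were taken as differences of log2(CPM + 1), into which the CPM scale enters through the added 1, and are given without a test, for changes within a line only. BAX over BCL2 in HEC265 was 0.28 and 0.46 on vehicle, 1.02 and 0.72 with paclitaxel, 1.71 and 1.38 with SM08502, and 1.66 and 1.43 with both drugs. In Ishikawa it was 2.01 and 1.49 on vehicle, 1.82 and 2.01 with paclitaxel, 2.08 and 2.23 with SM08502, and 2.60 and 2.51 with both drugs. Thus every SM08502 and combination library of these 2 lines lay above its vehicle libraries, by 0.40 to 1.18 in the group means. In Ishikawa-S33Y it lay below vehicle with the combination (0.55 and 0.65 against 0.97 and 0.95), and in SNGM with SM08502 (2.99 and 3.24 against 3.39 and 3.28) and the combination (3.25 and 3.11). A lack of overlap between 2 and 2 libraries is a weak criterion, met in Ishikawa-S33Y with SM08502 at a change of only -0.02. Comparisons within a line share vehicle libraries, and 2 of the ratios share MCL1, so they are not independent.

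BBC3 over BCL2L1 was higher than vehicle in every library given SM08502, in all 4 lines, by 1.03 in HEC265, 0.62 in Ishikawa, 0.54 in SNGM and 0.32 in Ishikawa-S33Y. The same held for the combination, by 0.35 to 1.08, except that the Ishikawa-S33Y groups overlapped when a pseudocount of 0.1 replaced 1. This rise was not particular to SM08502. With paclitaxel alone the ratio was above vehicle without overlap in Ishikawa (by 0.69), HEC265 (0.52) and SNGM (0.25). In Ishikawa-S33Y the paclitaxel and vehicle groups overlapped (0.08). PMAIP1 over MCL1 climbed in Ishikawa-S33Y from -4.14 and -4.35 on vehicle to -3.81 and -3.73 with SM08502 and -3.18 and -3.54 with the combination. Its group means were also above vehicle, without overlap, in SNGM with paclitaxel, SM08502 and the combination (by 0.40, 0.51 and 0.40) and in Ishikawa with the combination (by 0.34). In HEC265 it went the other way, from -2.18 and -2.01 to -2.35 and -2.40 and then -2.50 and -2.43. BCL2L11 over MCL1 also fell in HEC265, from -2.36 and -2.39 to -2.84 and -2.90 with the combination, while in Ishikawa-S33Y it was above vehicle with the combination by 0.31, without overlap. Paclitaxel alone moved this ratio the same way without overlap, by -0.18 in HEC265 and 0.17 in Ishikawa-S33Y. SM08502 alone gave -0.32 in HEC265 without overlap and -0.02 in Ishikawa-S33Y with overlap.

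**Figure D3:**
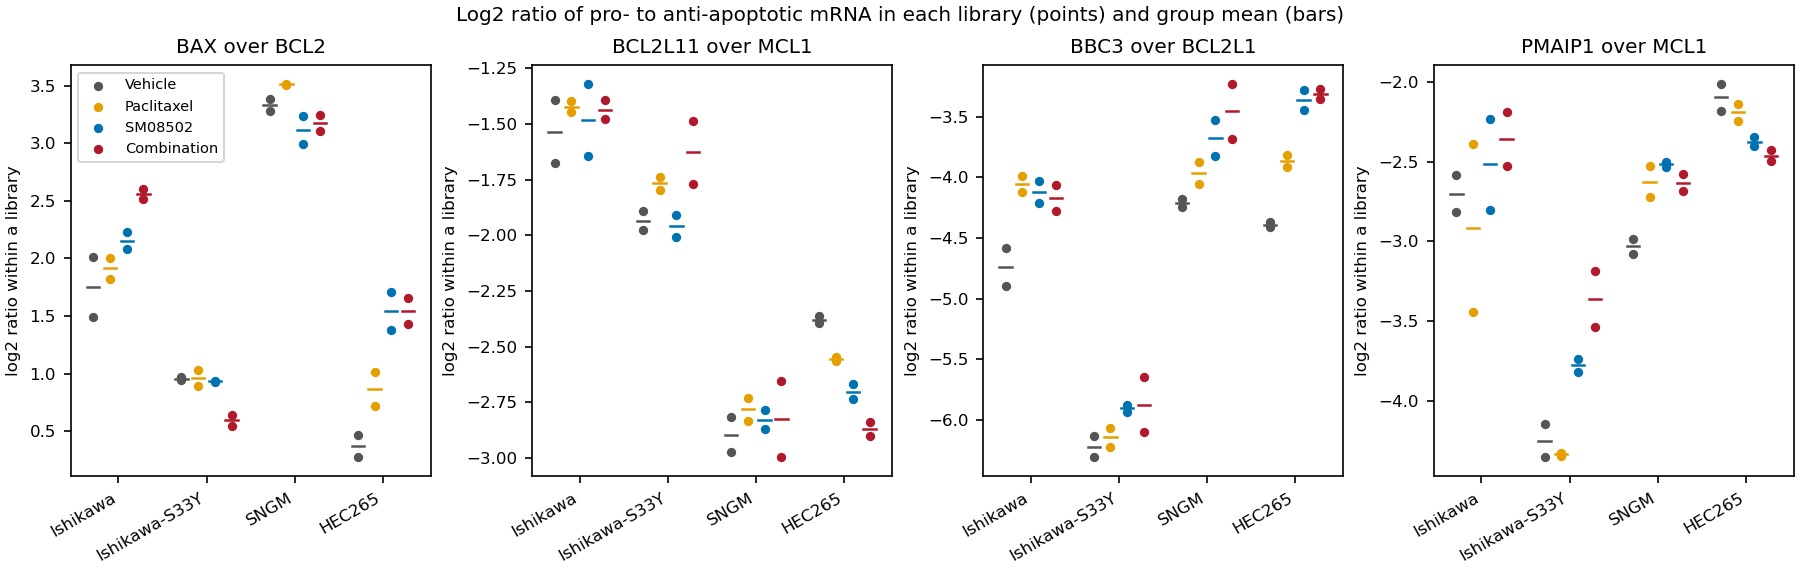
Log2 ratio within each library (points; bars are group means of 2) of BAX over BCL2, BCL2L11 over MCL1, BBC3 over BCL2L1 and PMAIP1 over MCL1, by line and coloured by treatment. BAX over BCL2 in HEC265 is at 0.28 and 0.46 on vehicle and at 1.38 to 1.71 with SM08502 or the combination, while PMAIP1 over MCL1 is above vehicle with the combination in Ishikawa, Ishikawa-S33Y and SNGM and below it in HEC265.

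Around the family, 50 further genes of the apoptosis pathway were followed in 10 lists, of which 48 were tested; BCL2A1 and BCL2L10, both anti-apoptotic, stayed under the filter. In the mean over lines SM08502 raised 12 and lowered 9 of the 48, and the combination raised 18 and lowered 9. Of all genes, SM08502 raised 22.6% and lowered 15.8%, and the combination raised 29.0% and lowered 20.1%. With paclitaxel none was called by limma or voom, and 5 had an unadjusted p under 0.05.

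Among relatives of the 10 genes, SM08502 lowered the anti-apoptotic BCL2L2 (-0.28) and the effector relative BOK (-0.31), each the only tested member of its list, and none of 3 further BH3-only genes (BMF, HRK, BIK) was called by limma or voom, with 0 at an unadjusted p under 0.05. Of 6 other family members, BNIP3 (-0.50), a hypoxia-induced mitophagy receptor, and BCL2L15 (-0.31) fell. BNIP3 on vehicle stood at 204 ± 3.1 CPM (SD, n = 2) in Ishikawa-S33Y and at 79.1 ± 29 CPM with SM08502, against 48.8 ± 3.7 and 49.9 ± 4.0 CPM in Ishikawa.

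Of 9 genes of the apoptosome and caspases, 4 rose and 1 fell with SM08502, where 22.6% of all genes rose and 15.8% fell. DIABLO, whose protein leaves mitochondria to block inhibitor-of-apoptosis proteins, rose by 0.53 ± 0.06 (adjusted p = 1.4e-06), and its group mean was higher in all 4 lines, for example 120 ± 4.3 against 75.3 ± 2.9 CPM in Ishikawa-S33Y. The initiator caspase gene CASP9 (0.29) and HTRA2 (0.28) also rose, while the executioner caspase gene CASP6 fell (-0.45). Among 5 inhibitor-of-apoptosis genes, BIRC3 (0.43) and BIRC2 (0.22) rose, with BIRC3 in HEC265 at 127 ± 0.64 against 62.5 ± 1.7 CPM on vehicle. Among 9 death receptor genes, FAS (0.36) and CFLAR (0.28), an inhibitor of caspase 8, rose and CASP8 (-0.18) fell.

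Genes that control MCL1 protein turnover changed in 4 of 5 cases without 1 direction, against 38.5% of all genes tested, in a list too short to read as a share. HUWE1, a ubiquitin ligase for MCL1, fell most (-0.89 ± 0.13, adjusted p = 1.7e-05), from 619 ± 26 to 214 ± 11 CPM in HEC265 and from 418 ± 27 to 157 ± 24 CPM in Ishikawa-S33Y, with 454 ± 53 and 439 ± 26 CPM in SNGM. FBXW7, a substrate receptor of another ligase for MCL1, rose (0.50 ± 0.05, adjusted p = 1.5e-07), with group means above vehicle in all 4 lines, for example 48.5 ± 0.92 against 31.9 ± 2.5 CPM in SNGM. USP9X, which removes ubiquitin from MCL1, fell (-0.41) and BTRC rose (0.25). HUWE1 and USP9X have long transcripts and are among the 52 genes of the composition score, which as a covariate left both falls called (-0.77 and -0.34, adjusted p = 1.5e-11 and 7.4e-05). Of 6 regulators of the family's transcription, ATF4 (0.39) rose and MYC (-0.18) fell. Of 3 voltage-dependent anion channel genes, VDAC2 (0.23), a partner of BAK1 at the mitochondrial membrane, rose.

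**Figure D4:**
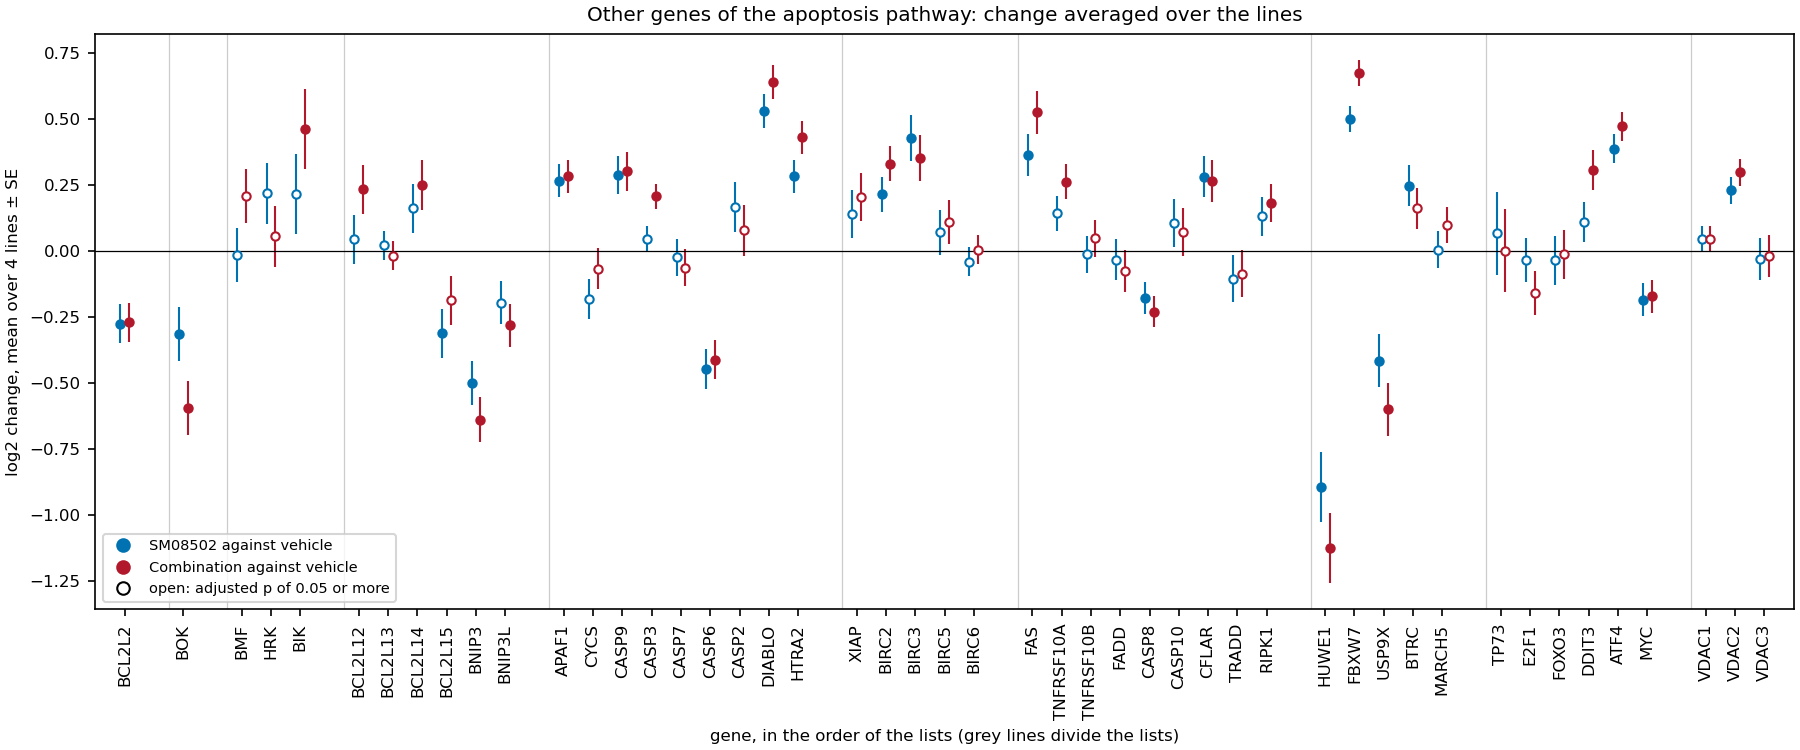
Log2 change against vehicle averaged over the 4 lines, with its standard error, for 48 other genes of the apoptosis pathway in the order of their lists, with SM08502 (blue) and the combination (red). Filled points passed an adjusted p under 0.05. HUWE1 lies lowest in both (-0.89 and -1.12), and FBXW7 (0.50 and 0.67) and DIABLO (0.53 and 0.64) lie highest.

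The likeness of expression patterns was described by Pearson's r over the 16 group means of log2(CPM + 1) after subtracting each line's own mean. The groups of a line share cells and processing, so no p is given. For BCL2 the closest genes were WNT5A (r = 0.93), NFIB (0.93) and AJUBA (0.90). BCL2L1 was most like PADI3 (0.96), HIST1H2BF (0.96) and PDXK (0.94), BAK1 most like CLIC1 (0.97), TAF13 (0.96) and ARMCX6 (0.95), and BBC3 most like CXorf56 (0.89), SESN1 (0.89) and GNRHR (0.86). GNRHR was barely expressed, at a mean log2(CPM + 1) of 0.56. These genes had the highest r of all genes tested, over only 16 points, so high values arise from the search itself. Between members, r ran from -0.73 for BCL2 with BAK1 to 0.75 for PMAIP1 with BID.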

How the data were processed

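Gene values of 32 RNA-seq libraries were used. FastSelect depletion of ribosomal RNA, KAPA mRNA HyperPrep libraries and a NovaSeq 6000 were used, per the labels' protocols. The submitters' processing notes name bcl2fastq, STAR, kallisto and GRCh38, without saying which program gave the gene values. Splicing tables were not used here. The authors deposited log10(CPM + 1) for each gene. CPM summed to 1000000 in each library, and 100% of values were whole reads within 0.05, which gave the depths.

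CPM were tested as log2(CPM + 1) for genes above 1 CPM in at least 2 libraries (17011 genes), with 1 mean per group over all 32 libraries in limma 3.58.1 (R 4.3.3) with an intensity trend and 16 residual degrees of freedom. Tests were two-sided, with Benjamini-Hochberg adjustment over all tested genes. On simulated data, this fit called 3 of 16811 unchanged genes. The simulation gave every library the same spread beyond counting noise. Real replicates differed unequally: the chi-square of their reads, per degree of freedom, was 2.393 in HEC265 vehicle and 97.66 in Ishikawa SM08502. The simulated count therefore does not measure the rate of false calls in these data. Groups came from the sample titles. The members, pathway lists and tests were chosen with earlier results of these data known. All 10 members are named, and from each list at most 4 genes called with SM08502 in the mean over lines, by size. The 3 most like genes are named for each member called there. Exceptions chosen after their values were seen are list members named as not called or not tested, and marker genes. One gene of the lists is not reported here. Alternatives varied the filter, pseudocount, scaling, variance model, samples fitted, a composition covariate, a replicate block, shallow libraries, voom on recovered reads, and each replicate left out. Promoters came from RefSeq (GRCh38.p14).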

Additional observations from a re-analysis of the deposited data

Results flagged for a closer look

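These results were singled out because the effect of a treatment differed between cell lines by limma's F test over the 4 lines, with p adjusted over all genes tested. For SM08502 they were BCL2 (adjusted p = 0.00718), whose change ran from -0.76 in HEC265 to 0.23 in SNGM, BAX (adjusted p = 0.018), from -0.19 in Ishikawa-S33Y to 0.41 in HEC265, and MCL1 (adjusted p = 0.0306), from -0.33 in SNGM to 0.27 in HEC265. For the combination they were BCL2 (adjusted p = 0.000212), from -0.93 in Ishikawa to 0.16 in SNGM, and BAX (adjusted p = 0.00816), from -0.27 in Ishikawa-S33Y to 0.36 in HEC265. BAK1 (adjusted p = 0.0197) ran from -0.26 in SNGM to 0.70 in HEC265, and without the shallow library the SNGM value was 0.02. PMAIP1 (adjusted p = 0.0168) ran from -0.03 in HEC265 to 1.07 in Ishikawa-S33Y, and BCL2L11 (adjusted p = 0.0366) from -0.16 in HEC265 to 0.49 in Ishikawa-S33Y. Groups held 2 libraries, too few to look for a single outlying sample.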

How the results depend on the processing

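Of 120 drug-against-vehicle member tests, 20 were called, none of these changed sign under any alternative, and 3 kept their call in all of them (BCL2 in HEC265 with SM08502 and with the combination, PMAIP1 in Ishikawa-S33Y with the combination). Of the 100 not called, 39 changed sign and 14 were called in at least 1 alternative. Of 42 called line differences on vehicle, 34 kept their call and none changed sign. SM08502 calls rose from 7 to 11 when only the line compared was fitted. Calls of the combination against paclitaxel rose from 6 to 10 with voom, 10 without the shallow libraries and 12 with only the line compared, and those against SM08502 from 0 to 1 with the composition covariate. The SM08502 F test went from 3 members to 1 after median re-centring. The cause was not tested.

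Leaving out 1 replicate at a time gave 3 to 7 calls for SM08502, 0 to 1 for paclitaxel, 8 to 14 for the combination, 0 to 2 for the combination against SM08502, 4 to 11 against paclitaxel and 39 to 42 for lines on vehicle. Means over lines gave 3 to 5 for SM08502, 0 for paclitaxel and 5 for the combination, additivity gave 0, and the F tests gave 1 to 3 and 3 to 5. A group left with 1 library was assumed to vary like the others. The main fit also shared the spread of a gene over all groups, although replicates differed more in some groups than in others, as given above. Whether that moved any call was not tested.

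With the replicate number as a block, calls were 7, 0 and 15 for SM08502, paclitaxel and the combination, 0 and 8 for the combination against SM08502 and paclitaxel, 43 for lines, 5, 0 and 5 for the means over lines, 0 for additivity, and 3 and 6 for the F tests. Same-numbered libraries did not deviate together throughout, with correlations of -0.575 to 0.861 in Ishikawa, -0.123 to 0.135 in Ishikawa-S33Y, -0.654 to 0.836 in SNGM and -0.154 to 0.328 in HEC265, so the numbers are not taken as pairs. A quasi-likelihood count test and a trimmed-mean scaling that had been listed were not run, because the deposited unit is log10 CPM. In the shallow SNGM library 3 reads correspond to 1.87 CPM, which limits BAD (10 reads), BCL2 (17), BAK1 (18) and BBC3 (31) there.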
